A study of Homo sapiens with 6 samples.

Results

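The genes described here are 42 listed genes of the endoplasmic reticulum (ER): chaperones, disulfide isomerases and oxidases, calcium-binding proteins of the CREC family, genes of ER-associated degradation (ERAD), the translocon and the sensors of the unfolded protein response (UPR). They were listed by name and role, with no threshold on a measured value, but with earlier results of these data known. All 42 were among the 17042 genes of the deposited count table. Each was measured in 3 control and 3 knockdown libraries of polyadenylated RNA from THP-1, a human leukaemia line of monocytic cells. In the knockdown group RP11-184M15.1, a long noncoding RNA, was targeted by transfected small interfering RNA ahead of the IL-4 step, and the control group is labelled wild type with no word on what it received. Cells of both groups were made into macrophages with PMA at 100 ng/mL over 24 hours and then held in IL-4, a cytokine of alternative activation, at 20 ng/mL for 24 hours. All libraries are of 1 cell line, and neither the siRNA sequence nor the origin of the replicates (separate cultures or not) is in the labels. The p-values therefore rest on variation among 6 libraries that could be technical.

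The ER is where secreted and membrane proteins are threaded through the Sec61 channel, folded by Hsp70 and Hsp90 chaperones and by the lectin chaperones calnexin and calreticulin, and given their disulfide bonds by protein disulfide isomerases. Proteins that fail to fold are drawn back into the cytosol and degraded by ERAD. When unfolded proteins build up, the sensors IRE1 (gene ERN1), PERK (gene EIF2AK3) and ATF6 start the UPR, a programme that raises many of these same genes, in part through a promoter sequence called the ER stress response element (ERSE). Macrophages secrete large amounts of protein and depend on this machinery.

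Of the 42 genes, 3 were higher in the knockdown libraries and none was lower at an adjusted p of 0.05 (edgeR quasi-likelihood test, Benjamini-Hochberg adjustment over all 13405 genes tested). The 3 genes were CALU, encoding the calcium-binding protein calumenin, at 1.43 times the control level, PDIA4, encoding the disulfide isomerase ERp72, at 1.19 times, and SEL1L, the adaptor of the main ERAD ubiquitin ligase, at 1.18 times. Over all genes tested, 1.22% were called higher and 1.61% lower. The abundant chaperones moved little: log2 fold changes were 0.05 for HSPA5 (BiP), -0.04 for HSP90B1 (GRP94), 0.05 for CALR (calreticulin), 0.02 for CANX (calnexin) and 0.02 for P4HB (the founding disulfide isomerase), none past the threshold. The median log2 fold change of the 42 genes was 0.04, beside -0.002 over all genes tested, with 30 members above 0 and 12 below.

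Library totals ran from 10450043 to 14181343 counts. All 42 members had more than 3 counts in every library and all passed the filter on low counts. Summed macrophage markers (10 of 10 in the table, CD68 and CSF1R the highest) came to between 4251 and 4542 CPM over the 6 libraries, where CPM is the count scaled to the library's size. The marker sums use the total counts alone, and every CPM of a single gene also uses the TMM factors. Within that list CD14, CD163 and ITGAX were higher and LYZ lower past the threshold. MRC1, of the same list, was low, at 1.42 to 3.23 CPM over the 6 libraries. The 4 T cell markers had no row, the summed B cell, epithelial and fibroblast markers stayed between 0.66 and 3.60 CPM, and those of granulocyte progenitors, which THP-1 cells also express, between 70.2 and 83.8 CPM. Mitochondrially encoded genes took 2.31% to 3.01% of the counts in the controls and 2.39% to 2.48% in the knockdown libraries, with a median log2 fold change of -0.16. Cytosolic ribosomal protein genes took 3.33% to 3.76% and 3.37% to 3.47%, with a median of -0.09. The part of these differences in the results that follow was not tested. No row of the table is named RP11-184M15.1, and its own level is not analysed here.

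Promoter sequence was read first, because the UPR acts on many of these genes through ERSE. The windows span 250 bases before to 50 bases after an annotated start (RefSeq, GRCh38.p14), and 39 of the 42 members had at least 1 window, 51 windows in all. ERSE was searched as CCAAT and CCACG with 9 bases between them, on both strands. It occurred in 8 of the 39 members (20.5%) and in 25 of 27305 genes with a window (0.0916%). ERSE is already known from genes of this kind, so the higher share is no independent finding. The 27305 genes were not matched to the members in level or promoter type. The elements are printed in their own orientation, 5′ to 3′, with 10 bases of flank where the window allows and the 2 boxes in capitals. They are shown because ERSE is a sequence by which the UPR is known to act. Whether it acts through each printed site was not tested.
HSPA5 (chr9:125241381-125241419, minus strand): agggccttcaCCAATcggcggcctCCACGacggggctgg
HSP90B1 (chr12:103930206-103930244, plus strand): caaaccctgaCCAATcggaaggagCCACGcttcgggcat
HSP90B1 (chr12:103930311-103930349, minus strand): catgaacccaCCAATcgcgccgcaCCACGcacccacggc
CALR (chr19:12938374-12938412, minus strand): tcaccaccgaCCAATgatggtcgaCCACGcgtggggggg
CANX (chr5:179698768-179698806, plus strand): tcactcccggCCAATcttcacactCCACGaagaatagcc
PDIA6 (chr2:10812843-10812881, minus strand): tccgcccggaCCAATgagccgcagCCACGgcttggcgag
ERO1B (chr1:236282173-236282208, plus strand): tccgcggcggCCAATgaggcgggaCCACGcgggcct
CRELD2 (chr22:49918544-49918582, minus strand): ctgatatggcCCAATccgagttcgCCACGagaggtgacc
XBP1 (chr22:28800593-28800631, minus strand): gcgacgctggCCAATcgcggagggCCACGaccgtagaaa

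None of the 8 ERSE-bearing members passed the threshold, and their log2 fold changes ran from -0.04 (HSP90B1) to 0.16 (ERO1B), with a median of 0.07. HSPA5, ERO1B and XBP1 among them had every knockdown library above every control, as did 9.61% of all genes tested, and none had every one below. The other 31 members with a window had a median of 0.02 and held all 3 genes that rose. With 1.22% of all genes tested called higher, 8 genes are too few for a lack of calls to be read as a difference. A shorter relative, ERSE-II, was searched as ATTGGNCCACG on both strands. It was found in HERPUD1, HYOU1 (at 2 places) and SDF2L1, that is in 3 of 39 members (7.69%) and in 0.0696% of all genes with a window. ERSE-II contains CCACG and, read on the other strand, CCAAT, so the elements share their boxes but not their layout. Its sites are shown with the whole element in capitals.
HERPUD1 (chr16:56932015-56932045, plus strand): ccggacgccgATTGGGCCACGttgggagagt
HYOU1 (chr11:119057264-119057294, plus strand): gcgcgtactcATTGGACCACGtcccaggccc
HYOU1 (chr11:119057370-119057400, plus strand): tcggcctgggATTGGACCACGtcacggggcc
SDF2L1 (chr22:21642104-21642134, minus strand): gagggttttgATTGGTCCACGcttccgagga

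Log2 fold changes of those 3 genes were 0.04 (HERPUD1), 0.05 (HYOU1) and 0.10 (SDF2L1), none past the threshold. The core of the UPR element bound by XBP1 and ATF6, searched as TGACGTGG on both strands, contains CCACG read on the other strand and occurred in DNAJC10, HYOU1, TXNDC11 and TXNDC5, or 10.3% of members with a window against 0.927% of all genes with one. In HYOU1 it overlaps an ERSE-II on the opposite strand. These 4 genes had log2 fold changes from 0.01 to 0.11, none past the threshold. A match is an exact string of letters in a window of 300 bases. Elements that differ by a letter or lie farther from the start are not covered. Whether any of these elements bears on the changes was not tested.

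The windows of the 3 genes that rose are also shown, on the strand of the gene. Every CCAAT and CCACG is in capitals on either strand (ATTGG and CGTGG where they lie on the other). None holds an exact match to ERSE, ERSE-II or the TGACGTGG core. Matches that differ by a letter were not searched, but some are present. SEL1L has CGTGGtccaac, a letter away from ERSE-II read on the other strand, and CALU has ggaCGTGG, a letter away from the core. How common such near matches are was not counted. CALU has 3 CCAAT and 3 CCACG letters in its window, PDIA4 has 3 and 1, and SEL1L has 5 and 1. CCAAT alone is in a window of 39.7% of all genes and CCACG alone of 42.1%. Among members with a window, the shares are 82.05% and 76.92%, so these boxes are common in the list. For PDIA4 the first of 2 annotated windows is shown.
CALU (chr7:128739109-128739408, plus strand): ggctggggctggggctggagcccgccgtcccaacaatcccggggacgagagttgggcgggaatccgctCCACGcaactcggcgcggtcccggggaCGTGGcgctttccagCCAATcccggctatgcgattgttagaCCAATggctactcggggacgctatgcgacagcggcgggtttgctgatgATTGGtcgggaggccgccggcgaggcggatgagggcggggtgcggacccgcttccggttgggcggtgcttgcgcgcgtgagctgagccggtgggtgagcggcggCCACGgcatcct
PDIA4 (chr7:149028441-149028740, minus strand): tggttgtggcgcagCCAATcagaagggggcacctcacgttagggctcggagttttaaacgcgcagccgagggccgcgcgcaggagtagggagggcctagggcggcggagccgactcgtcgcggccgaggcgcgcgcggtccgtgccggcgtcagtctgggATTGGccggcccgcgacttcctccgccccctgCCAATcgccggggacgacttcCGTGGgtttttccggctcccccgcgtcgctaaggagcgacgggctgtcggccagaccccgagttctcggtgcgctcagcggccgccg
SEL1L (chr14:81533804-81534103, minus strand): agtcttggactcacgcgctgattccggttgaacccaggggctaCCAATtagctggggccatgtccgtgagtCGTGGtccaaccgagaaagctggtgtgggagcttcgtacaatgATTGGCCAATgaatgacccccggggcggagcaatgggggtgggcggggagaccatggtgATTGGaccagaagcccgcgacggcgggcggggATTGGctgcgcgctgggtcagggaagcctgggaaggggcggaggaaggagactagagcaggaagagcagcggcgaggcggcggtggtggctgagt

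The CREC proteins, named for reticulocalbin and calumenin among others, are EF-hand calcium-binding proteins of the secretory pathway, and CALU was the one of the 4 that passed. CALU (ENSG00000128595.16, chromosome 7, 128739292 to 128771807, plus strand, GRCh38) was at 163, 148 and 141 CPM in the control libraries and at 213, 219 and 215 CPM in the knockdown libraries. All 3 knockdown values lay above all 3 controls, with a gap wider than the spread inside either group (control SD 11.4, knockdown SD 2.90, n = 3 each). The log2 fold change was 0.52 ± 0.05 (SE; 95% interval 0.41 to 0.63; edgeR adjusted p = 4.78e-05), and CALU was called with any 1 library left out. No exon of another annotated gene overlaps its exons.

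RCN1 (reticulocalbin 1) was at 98.7, 97.3 and 102 CPM in the controls and at 107, 109 and 116 CPM in the knockdown libraries. The groups did not overlap, but the difference missed the threshold (log2 fold change 0.16, 95% interval 0.05 to 0.26, edgeR adjusted p = 0.124). RCN1 shares exonic sequence with AL035078.4, and 0.675% as many counts as RCN1 were assigned to its pseudogene copy RCN1P2, so reads may have been split. RCN2 (reticulocalbin 2) ranged from 39.2 to 46.6 CPM in the controls and from 43.5 to 46.8 CPM in the knockdown libraries, and SDF4 (Cab45, the Golgi-located member) from 290 to 304 and from 292 to 307 CPM. Both overlapped between groups, with log2 fold changes of 0.11 and 0.01. Within each library, counts of CALU divided by counts of RCN1 were 1.65, 1.52 and 1.38 in the controls and 1.99, 2.02 and 1.85 in the knockdown libraries. The ratio of CALU to RCN2 moved by 0.41 and that to SDF4 by 0.51 on the log2 scale, and that to RCN1 by 0.37, all 3 with no overlap between groups. Each gave p = 0.1 in an exact two-sided permutation test, the smallest that 3 against 3 libraries allow (adjusted p = 0.113 over 9 such pairs), so no ratio can reach 0.05 in this design. CALU, PDIA4 and SEL1L were put first in these pairs because they had passed in the same libraries, so the ratios are no independent evidence.

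**Figure D1:**
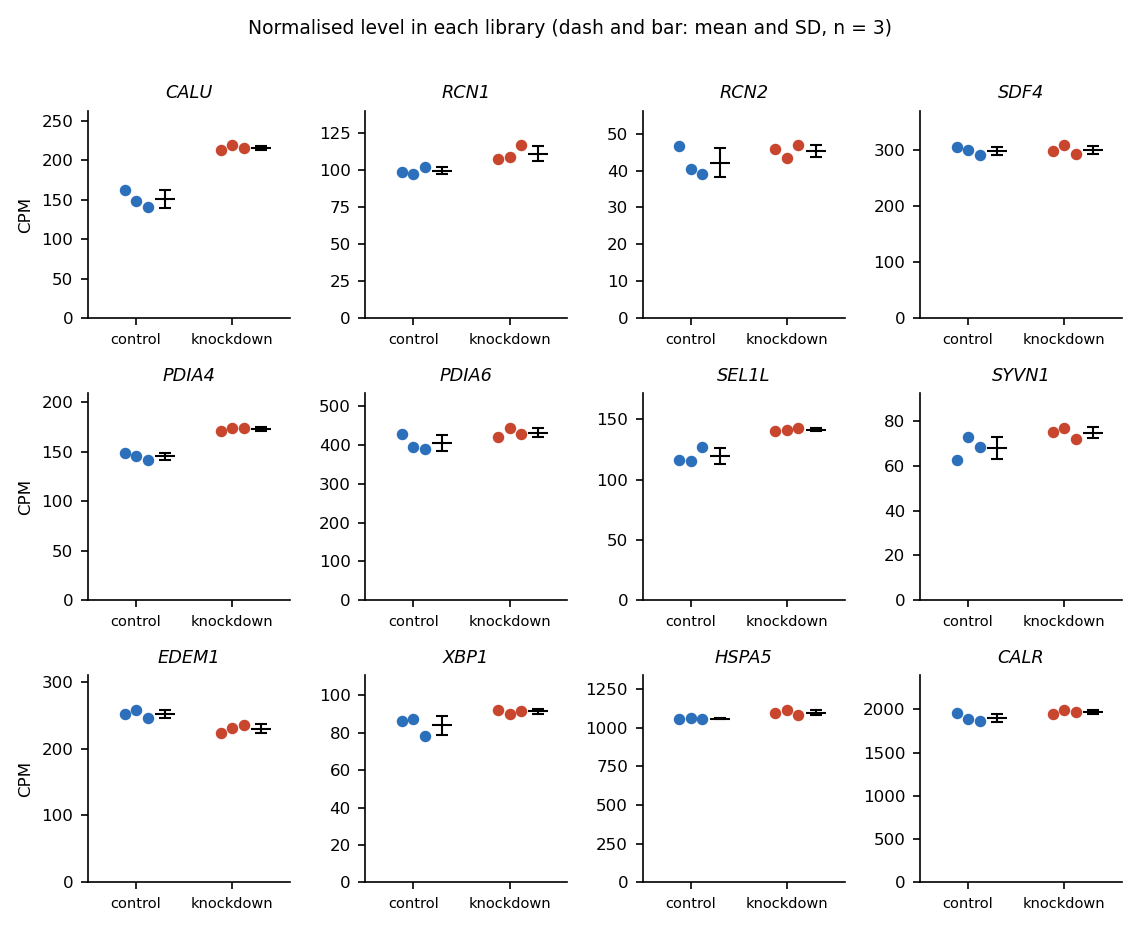
CPM of 12 ER genes (vertical axes from 0, one scale per panel) in each of the 3 control (blue) and 3 knockdown (red) libraries, with the mean and SD of each group in black. CALU, PDIA4, SEL1L, RCN1, XBP1 and HSPA5 have knockdown points above all control points, and EDEM1 has them below. The points of RCN2, SDF4, PDIA6, SYVN1 and CALR overlap.

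Protein disulfide isomerases carry thioredoxin-like domains that make, break and reshuffle disulfide bonds, and the ERO1 oxidases recharge them. PDIA4 (ENSG00000155660.10, chromosome 7, 149003062 to 149028641, minus strand) was at 149, 145 and 142 CPM in the controls and at 171, 174 and 174 CPM in the knockdown libraries. Every knockdown value lay above every control (knockdown SD 1.78, control SD 3.72, n = 3 each). The log2 fold change was 0.25 ± 0.04 (SE; 95% interval 0.16 to 0.35; edgeR adjusted p = 0.00518), and PDIA4 was called with any 1 library left out. Some of these calls lay close to the threshold. Without control replicate 1, 2 or 3 the edgeR adjusted p was 0.00108, 0.0372 or 0.00993. Without knockdown replicate 1, 2 or 3 it was 0.0298, 0.0447 or 0.0466.

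The other 11 genes of disulfide chemistry did not pass. P4HB, the most abundant of them per length, had 1644, 1596 and 1539 CPM in the controls and 1606, 1654 and 1595 CPM in the knockdown libraries. PDIA3 (ERp57, the partner of the lectin chaperones) had 799, 751 and 771 CPM in the controls and 808, 798 and 805 CPM in the knockdown libraries. Both genes overlapped between groups, with 95% intervals of the log2 fold change from -0.07 to 0.11 and from -0.03 to 0.14. Divided by P4HB in the same library, PDIA4 counts rose from 0.091, 0.091 and 0.092 to 0.106, 0.105 and 0.109, a shift of 0.23 on the log2 scale. The shifts against PDIA3 and PDIA6 were 0.20 and 0.16, and all 3 ratios separated the groups (exact permutation p = 0.1 each, adjusted p = 0.113).

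TXNDC11, a thioredoxin-domain protein of the ER membrane, and ERO1B, an ERO1 oxidase, separated the groups upward without passing. TXNDC11 was at 86.2, 93.0 and 92.2 CPM in the controls and at 98.5, 97.4 and 97.4 CPM in the knockdown libraries (log2 fold change 0.11, edgeR adjusted p = 0.301). ERO1B, at 19.5, 19.7 and 17.3 against 21.4, 20.7 and 21.3 CPM, had 0.16 (edgeR adjusted p = 0.397). Its relative ERO1A, which also responds to low oxygen, went the other way in value, from 77.3 to 80.0 CPM in the controls and from 65.9 to 81.2 CPM in the knockdown libraries, where the groups overlapped (log2 fold change -0.10). PDIA5 separated the groups downward at a low level, with 13.9, 13.7 and 13.8 CPM in the controls and 12.96, 11.4 and 12.2 CPM in the knockdown libraries (log2 fold change -0.18, edgeR adjusted p = 0.419). The remaining members, PDIA6, TXNDC5, CRELD2, ERP29 and ERP44, overlapped between groups, with log2 fold changes from -0.04 (ERP44) to 0.11 (TXNDC5). ERP29 had the widest relative spread of the 12 among controls (coefficient of variation 13.1%), with 186 CPM in control replicate 1 against 154 and 146 CPM in the other controls. TXNDC5 shares exons with the read-through gene BLOC1S5-TXNDC5, PDIA5 with SEC22A, and 0.587% as many counts as PDIA3 were assigned to its pseudogene copy PDIA3P1, so reads may have been split there.

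ERAD takes misfolded proteins out of the ER through a membrane complex in which SEL1L holds the ubiquitin ligase SYVN1 (HRD1), with the Derlins as channel-like partners, HERPUD1 as a scaffold and EDEM1 trimming mannose from the client's glycans. SEL1L (ENSG00000071537.13, chromosome 14, 81471549 to 81533861, minus strand) was at 116, 116 and 127 CPM in the controls and at 141, 141 and 143 CPM in the knockdown libraries. The groups did not overlap (control SD 6.57, knockdown SD 1.42, n = 3 each). The log2 fold change was 0.24 ± 0.05 (SE; 95% interval 0.14 to 0.35; edgeR adjusted p = 0.0137). That call did not survive every omission: adjusted p was 0.105 without control replicate 2. Leaving out knockdown replicate 1, 2 or 3 gave 0.0633, 0.08 or 0.0876, and the log2 fold change lay between 0.22 and 0.25 in these 4 fits.

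SYVN1 had values of 62.8, 72.8 and 68.5 CPM in the controls and of 75.2, 77.2 and 72.3 CPM in the knockdown libraries. A control value (72.8 CPM) lay above the lowest knockdown value, and the difference missed the threshold (log2 fold change 0.14, edgeR adjusted p = 0.293). EDEM1 had 252, 258 and 246 CPM in the controls and 223, 231 and 235 CPM in the knockdown libraries, so its groups separated in the direction opposite to SEL1L (log2 fold change -0.13, 95% interval -0.23 to -0.04, edgeR adjusted p = 0.126). HERPUD1, a gene that the UPR is known to raise strongly, was at 66.9, 70.7 and 66.9 CPM in the controls and at 72.3, 69.1 and 69.1 CPM in the knockdown libraries, and overlapped (log2 fold change 0.04). DERL1 and DERL2 had log2 fold changes of 0.00 and -0.07, with overlapping groups. DERL3 was low, at 0.985 to 2.27 CPM over the 6 libraries, so its interval was wide (-0.92 to 0.39). Ratios of SEL1L to HERPUD1 and to EDEM1 separated the groups, by 0.20 and 0.38 on the log2 scale (exact permutation p = 0.1 each), whereas the ratio of SEL1L to SYVN1 overlapped (shift 0.11, exact permutation p = 0.4). SYVN1 shares exonic sequence with FAU and, on the other strand, MRPL49, so its counts are less certain. Other members also overlap exons on the opposite strand, among them PDIA6 (ATP6V1C2), CRELD2 (ALG12) and SEC61A1 (RUVBL1).

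**Figure D2:**
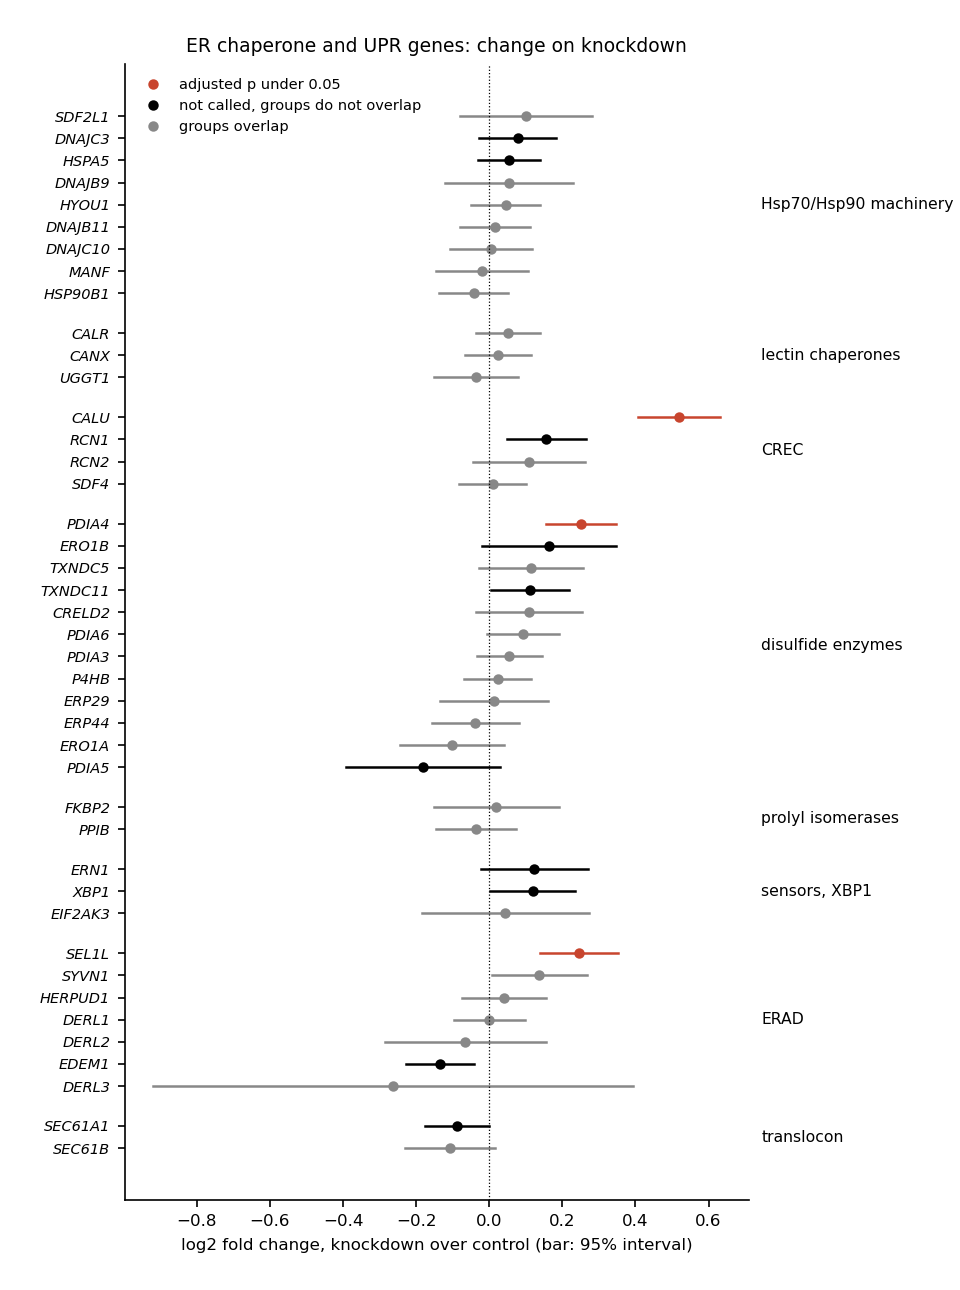
Log2 fold change of each of the 42 genes (horizontal axis, knockdown over control) with its 95% interval as a bar, grouped by role and ordered by value. Red marks the 3 genes past the threshold, CALU (0.52), PDIA4 (0.25) and SEL1L (0.24), black the 10 genes whose groups do not overlap but which did not pass, and grey the rest. DERL3, at under 3 CPM, has the widest bar.

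The Hsp70 of the ER, HSPA5, works with J-domain partners (DNAJB9, DNAJB11, DNAJC3, DNAJC10), the large Hsp70-like protein HYOU1, the stabilising factors SDF2L1 and MANF, and the Hsp90 of the ER, HSP90B1. None of these 9 genes passed, and their log2 fold changes lay between -0.04 and 0.10. HSPA5 was at 1056, 1061 and 1055 CPM in the controls and at 1093, 1116 and 1084 CPM in the knockdown libraries. Its knockdown values were all higher, but by 3.80% in the fit (95% interval of the log2 fold change -0.03 to 0.14, edgeR adjusted p = 0.589). HSP90B1 was at 972, 915 and 892 CPM in the controls and at 912, 884 and 903 CPM in the knockdown libraries, with overlap. DNAJB9, a sensitive target of IRE1 and XBP1, was at 25.6, 24.4 and 27.4 CPM in the controls and at 25.8, 25.4 and 29.1 CPM in the knockdown libraries, again with overlap. DNAJC3 was the other gene of this group whose libraries separated, from 86.5 to 92.6 CPM in the controls and from 93.1 to 96.1 CPM in the knockdown libraries (log2 fold change 0.08, edgeR adjusted p = 0.509). In 7 of the 9 genes the 95% interval lay inside ± 0.2 on the log2 scale.

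The lectin chaperones hold glycoproteins that still carry a glucose, and UGGT1 adds that glucose back to clients not yet folded. CALR was at 1960, 1885 and 1863 CPM in the controls and at 1950, 1996 and 1965 CPM in the knockdown libraries, and CANX at 1147, 1106 and 1169 and at 1177, 1135 and 1168 CPM. Both overlapped between groups. UGGT1 ranged from 120 to 139 CPM in the controls and from 125 to 128 CPM in the knockdown libraries (log2 fold change -0.04). All 3 intervals lay inside ± 0.2. The prolyl isomerases FKBP2 and PPIB had log2 fold changes of 0.02 and -0.04, also with intervals inside ± 0.2 and overlapping groups.

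In the controls the sensor genes EIF2AK3 and ERN1 were at 12.6 and 31.2 CPM (means of 3). The median was 110 CPM over the members and 21.5 CPM over all genes tested. ATF6, a sensor outside the 42 genes, was at 171 CPM. XBP1, the transcription factor whose mRNA IRE1 splices, was at 84.0 CPM. XBP1 was at 86.3, 87.5 and 78.1 CPM in the controls and at 92.2, 89.9 and 91.8 CPM in the knockdown libraries. ERN1 was at 30.0, 31.7 and 32.0 CPM in the controls and at 33.3, 33.4 and 35.5 CPM in the knockdown libraries. In both genes every knockdown library was above every control, with log2 fold changes of 0.12, and neither passed (edgeR adjusted p = 0.314 and 0.436). EIF2AK3 was at 11.2, 12.6 and 13.9 CPM in the controls and at 13.7, 12.9 and 12.3 CPM in the knockdown libraries, with overlap. Counts per gene do not separate spliced from unspliced XBP1, and sensor activity is set by phosphorylation and cleavage, which were not measured.

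The translocon genes were the group with both members below 0. SEC61A1, the pore subunit, was at 616, 621 and 642 CPM in the controls and at 586, 597 and 586 CPM in the knockdown libraries, with no overlap between groups (log2 fold change -0.09, edgeR adjusted p = 0.331). SEC61B, a small accessory subunit, ranged from 71.2 to 78.8 CPM in the controls and from 66.4 to 71.5 CPM in the knockdown libraries, with overlap (log2 fold change -0.11, edgeR adjusted p = 0.409).

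**Figure D3:**
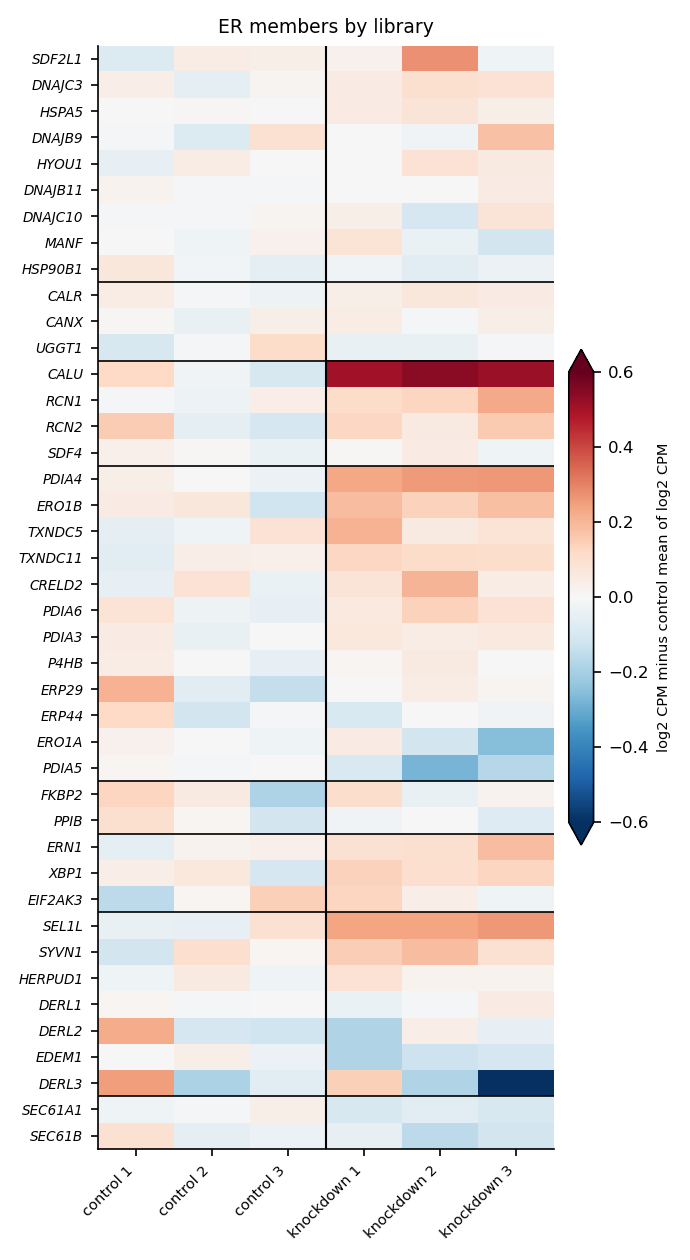
Log2 CPM of each gene (rows, grouped by role in the order of the text on folding, lectin, CREC, disulfide, prolyl isomerase, sensor, ERAD and translocon genes) minus its control mean, in the 6 libraries (columns), with red above and blue below. The rows of CALU, PDIA4 and SEL1L are red in all 3 knockdown libraries, and so, more faintly, are others such as RCN1, XBP1 and ERN1. The darkest blue cell is DERL3 in knockdown replicate 3 (0.985 CPM).

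Read together, 10 of the 42 members (CALU, PDIA4, SEL1L, RCN1, TXNDC11, ERO1B, HSPA5, DNAJC3, XBP1 and ERN1) had every knockdown library above every control, and 3 (EDEM1, SEC61A1 and PDIA5) had every one below. Over all genes tested these shares were 9.61% and 10.4%. The members were expressed more highly than most genes, with a median control level of 110 CPM beside 21.5 CPM over all genes tested, and had a smaller median standard error (0.05 against 0.09). At an unadjusted p under 0.05, 7 members were higher (6.89% of all genes tested) and 2 were lower, EDEM1 and SEC61A1 (8.21% of all genes tested). DESeq2 and limma-voom called the same 3 members higher and none lower. In 21 of the 42 members the 95% interval lay inside ± 0.2.

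As a share of all counts, the 42 members took 1.23%, 1.198% and 1.202% in controls 1 to 3, and 1.26%, 1.27% and 1.27% after knockdown, with no overlap. After scaling by the TMM factors, which were 0.986 to 0.996 in the controls and 1.01 in each knockdown library, the summed level was 12513, 12153 and 12084 CPM in the controls and 12495, 12619 and 12499 CPM in the knockdown libraries. On that scale control replicate 1 lay above knockdown replicates 1 and 3, so the separation depended on the scaling. Spread between replicates was small in both groups, with a median coefficient of variation of 4.27% in the controls and 2.80% in the knockdown libraries, and it was larger in the controls for 26 of the 42 genes.

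Per kilobase of merged exons (GENCODE 29 basic set), the members spanned a wide range in the controls. CALR led with 999.7 CPM per kilobase, followed by P4HB (611), PPIB (378), HSP90B1 (323), HSPA5 (271) and CANX (257). The genes that rose ranked 16 (PDIA4, 50.1 CPM per kilobase), 23 (CALU, 34.1) and 31 (SEL1L, 13.9) among the 42. The sensors ERN1 (3.19) and EIF2AK3 (2.60) were near the bottom, and DERL3 (0.577) was last. Merged exons overstate the length of genes with long rare transcripts, such as DNAJC10, so these levels are approximate.

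**Figure D4:**
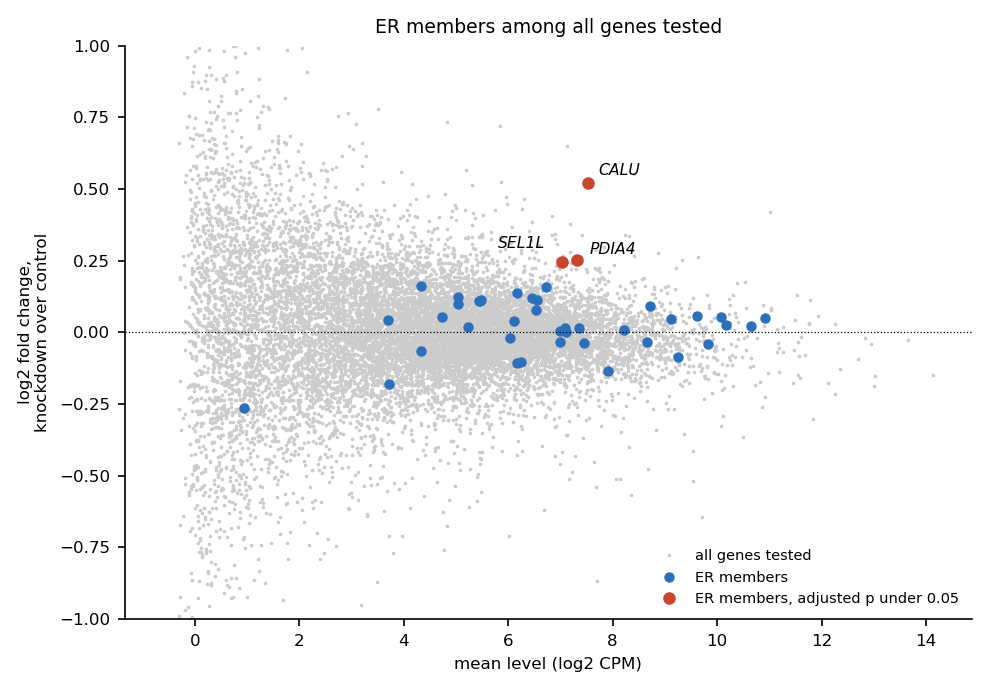
Mean level (horizontal axis, log2 CPM) and log2 fold change (vertical axis, knockdown over control) of all 13405 genes tested (grey), of the ER members (blue) and of the 3 members past the threshold (red). Most members sit close to 0 at medium to high levels and CALU lies above the cloud at its level. The vertical axis ends at 1 in either direction and leaves out 73 genes, none of them a member.

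A wider list of 118 other genes of the ER and its stress response was read alongside, 117 of them in the table and 116 tested. Of the 116, 3 were higher and 1 lower past the threshold, beside 1.22% and 1.61% of all genes tested. The median log2 fold change was -0.01. MBTPS1 (site-1 protease), which cuts ATF6 in the Golgi, rose from 67.3, 63.4 and 64.4 CPM in the controls to 86.8, 87.8 and 87.7 CPM in the knockdown libraries (log2 fold change 0.43, edgeR adjusted p = 0.000225). SRPRA, the receptor that docks ribosomes carrying a signal peptide, rose from 262, 259 and 274 CPM to 331, 349 and 325 CPM (log2 fold change 0.34, edgeR adjusted p = 0.000617). MCFD2, the calcium-binding partner of the cargo receptor LMAN1, rose from 154, 144 and 152 CPM to 191, 188 and 191 CPM (log2 fold change 0.34, edgeR adjusted p = 0.000589). All 3 separated the groups in every library and were called with any 1 library left out.

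The gene that fell was DNAJB14, a J-domain protein of the ER membrane, from 50.2, 52.1 and 53.1 CPM to 39.4, 41.9 and 46.2 CPM (log2 fold change -0.29, edgeR adjusted p = 0.0319). That call was lost on leaving out control replicate 2 (edgeR adjusted p = 0.146) or 3 (0.0661), or knockdown replicate 1 (0.166) or 2 (0.16), while the log2 fold change lay between -0.28 and -0.24 in these 4 fits. LMAN1 itself had a log2 fold change of 0.03 and SRPRB, which anchors SRPRA, of 0.00, neither past the threshold. SRPRA overlaps exons of FOXRED1 and FAM118B, and MCFD2 those of TTC7A, on the opposite strand, so their counts are less certain where strand was not used.

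Among 17 regulators of the UPR on that list, 2 had every knockdown library above every control (MBTPS1 and CREB3L2) and 2 had every one below (PPP1R15B and NFYA). MBTPS1 was the one of the 17 that passed. Over all genes tested, 9.61% had every knockdown library above every control and 10.4% had every one below. ATF6, MBTPS2, ATF4, DDIT3 and PPP1R15A overlapped between groups. ATF6 was at 181, 167 and 164 CPM in the controls and at 160, 159 and 166 CPM in the knockdown libraries (log2 fold change -0.08), and MBTPS2, the site-2 protease that completes its release, had -0.07. ATF4, the transcription factor translated when PERK is active, was at 264, 244 and 227 CPM in the controls and at 229, 234 and 227 CPM in the knockdown libraries (log2 fold change -0.09). Its target DDIT3 (CHOP) was at 28.5, 26.5 and 19.9 CPM in the controls and at 31.8, 29.04 and 26.3 CPM in the knockdown libraries (log2 fold change 0.21, 95% interval -0.02 to 0.45, edgeR adjusted p = 0.387). PPP1R15A (GADD34), which ends the PERK signal, had 0.00 with an interval of -0.15 to 0.16.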

How the data were processed

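The deposited values are expected counts by gene symbol (all whole, 100%), deposited by the authors. The submitters' processing notes name Salmon 0.11.2, DESeq2 and hg38 without saying what each was for. The lowest row sum is 10. Summing to genes and use of strand are not stated in any source at hand. Where Salmon made the counts, it splits reads between genes that share sequence.

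Samples were grouped by title. The main test was edgeR's quasi-likelihood fit (version 4.0.16, TMM factors, filterByExpr on the 2 groups, no covariate, two-sided, adjusted p under 0.05 over 13405 genes, R 4.3.3). The edgeR standard error is the log2 fold change divided by the square root of F, and 95% intervals use the test's degrees of freedom, both approximate. CPM of a gene uses the TMM factors, and marker sums use total counts alone. A floor of 3 counts was 0.21 to 0.29 CPM. Positions and exons are GENCODE 29 on GRCh38. Of the 118 other pathway genes, 1 was matched by an older symbol. Alternatives were DESeq2 1.42.0, limma-voom (limma 3.58.1), RLE and upper-quartile factors, no filter, at least 1 CPM in 3 libraries, a replicate block and leaving out each library. Exact permutation tests used scipy 1.17.1. Fits were tested on simulated data first. Within groups, counts of library pairs differed by more than sampling noise (chi-square over its degrees of freedom 1.91 to 6.79), so none was a duplicate.

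The members and lists were chosen with earlier results of these data known. All 42 members could be named. Those past the threshold or separating the groups, and the defining genes of each role, were given in every library. Other pathway genes were named if past the threshold or if among ATF6, ATF4, DDIT3, PPP1R15A, MBTPS1 and MBTPS2. LMAN1 and SRPRB, as partners of called genes, and CREB3L2, PPP1R15B and NFYA, for their separated libraries, were added after their values were seen.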

Additional observations from a re-analysis of the deposited data

How the results depend on the processing

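The same 3 members, CALU, PDIA4 and SEL1L, were called higher and none lower with DESeq2, limma-voom, RLE and upper-quartile factors, no filter, the 1 CPM filter and the replicate block, and the 4 other pathway genes were called in each of these too. DESeq2 gave no adjusted p for DERL3. With 1 library left out, 2 to 3 members were higher and 0 lower, 3 to 4 other pathway genes were higher and 0 to 1 lower, and the members' median log2 fold change ran from 0.0266 to 0.0507. Over all genes, 55 to 214 were then higher and 84 to 328 lower. The calls lost were those of SEL1L and DNAJB14, under fewer samples. Among the other pathway genes, SELENOF was gained as higher without control replicate 1. SEC11A was gained as lower without control replicate 3, where DNAJB14 was lost. With the replicate block, 3 members were higher, 200 genes in all were higher and 288 lower. Same-numbered libraries had correlated deviations of 0.05, 0.10 and 0.08, not all over 0.1, so the numbers were not taken to pair the libraries, although each control correlated best with its own number. Depth limits DERL3, EIF2AK3 and PDIA5, at under 15 CPM.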
